A study of Mus musculus with 12 samples.

Results

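The 35 genes described here form a panel of interferon response genes, chosen by name and matched by Ensembl identifier among 54146 gene identifiers in the tables of 12 RNA sequencing libraries. Of these 35 genes, 22 had enough reads to be tested and 13 did not. The libraries came from BMEL cells, a line of bipotential mouse embryonic liver progenitors isolated from a mouse with floxed Cdk8 alleles (CDK8F/F), and all 4 groups of 3 libraries share that origin. The groups were wild-type cells with no transformation (untransformed), wild-type cells transformed by H-RasG12V (RasG12V), and H-RasG12V-transformed cells with Cdk8 knocked out or with Cdk19 knocked out. No drug or interferon was given, and all cells were growing exponentially on collagen-coated plates with serum, insulin, IGFII and EGF. The labels do not say whether a knockout was 1 clone or a pool, nor whether replicates were separate cultures; p-values therefore measure only the spread between these libraries, which may be technical.

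Type I and type III interferons are secreted when a cell detects foreign nucleic acid, and they act through receptors, JAK kinases and the transcription factor complex ISGF3, which contains STAT2 and IRF9. ISGF3 and the IRF factors bind the interferon-stimulated response element (ISRE) of their targets, whereas many targets of interferon gamma carry a GAS element. Many target genes restrict viruses directly, and many also have a basal level without added interferon. CDK8 and CDK19 are the alternative kinases of the Mediator kinase module, which regulates transcription by RNA polymerase.

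The response element could be seen in the promoters of the panel. RefSeq promoters on GRCm38.p6, covering 250 bases before to 50 bases after each gene's start, were given for 28 of the 35 genes. The ISRE core, GAAA followed by any 2 bases and GAAA, searched on both strands, was present in 15 of these 28 promoters (53.6%) and in 1079 of 27025 promoters of all genes (3.99%). It lay before the start in 11 genes, among them Stat2, Isg15, Ifit1, Ifit3, Rsad2 and Bst2. The GAS core TTCNNNGAA was present in 9 of 28 (32.1%) and in 9.55% of all promoters. The ISRE core was found in 7 of the 15 tested genes with a promoter and in 8 of the 13 that were too low to test. The stretches below are printed 5′ to 3′ on the gene's strand, with the ISRE core matches in capitals. Bst2 also had a GAS core match, which is not marked. Stat2 was shown by rule, as a tested gene that fell with RasG12V and has an ISRE core match. Ifih1 also met this rule, with a match that did not lie before the start, and was not shown. The other 3 genes shown were chosen after their values were seen: Isg15 and Gbp3 as genes near or at the counting floor, and Bst2 as a well detected gene. The Stat2 stretch is chr10:128270248-128270497 (plus strand), Isg15 is chr4:156200819-156200968 (minus strand), Gbp3 is chr3:142559894-142560043 (plus strand) and Bst2 is chr8:71537473-71537622 (minus strand).
Stat2: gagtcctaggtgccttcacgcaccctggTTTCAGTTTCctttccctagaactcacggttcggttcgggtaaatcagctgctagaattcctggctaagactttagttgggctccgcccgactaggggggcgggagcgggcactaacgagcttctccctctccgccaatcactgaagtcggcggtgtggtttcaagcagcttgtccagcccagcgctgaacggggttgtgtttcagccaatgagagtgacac
Isg15: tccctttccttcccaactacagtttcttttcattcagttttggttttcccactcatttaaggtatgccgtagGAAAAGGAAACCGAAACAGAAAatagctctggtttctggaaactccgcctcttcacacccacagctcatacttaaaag
Gbp3: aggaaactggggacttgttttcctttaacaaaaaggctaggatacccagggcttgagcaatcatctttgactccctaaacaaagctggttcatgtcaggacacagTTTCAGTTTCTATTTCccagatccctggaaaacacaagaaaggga
Bst2: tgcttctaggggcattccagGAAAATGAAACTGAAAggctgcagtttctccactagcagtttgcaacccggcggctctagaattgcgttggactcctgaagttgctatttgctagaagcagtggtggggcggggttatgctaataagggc
Isg15 held 3 overlapping ISRE core matches between 78 and 57 bases before its start, and Gbp3 held 2 between 45 and 30 bases before. Bst2 held 2 between 130 and 115 bases before, and Stat2 held 1 between 222 and 213 bases before. A match is a run of letters and was not measured as a bound site.

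The libraries held 24823560 to 36879661 gene counts, and levels are given as TMM-scaled CPM, that is counts scaled to library size. A count of 0 allows up to 3 counts, which is 0.0813 to 0.121 CPM in 1 library, and this floor, like the counting intervals below, covers counting error only. Hras stood at 50.0 ± 8.57 CPM (SD, n = 3) in untransformed cells and 453 ± 123 CPM in RasG12V cells. Cdk8 stood at 54.5 ± 3.13 CPM in RasG12V cells and 42.8 ± 1.30 CPM in the Cdk8 knockout, and Cdk19 at 75.2 ± 16.0 and 49.8 ± 4.22 CPM in RasG12V cells and the Cdk19 knockout. Gene-level counts do not show whether the deleted part is absent. Of 14 hepatic progenitor markers 13 were tested, with summed levels of 6754 to 10190 CPM, whereas Epcam was too low to test. Much of this sum came from keratins, with Krt18 at 2570 to 4280 CPM and Krt19 at 1670 to 2870 CPM. Alb was low, at 0 to 4.12 CPM. Leukocyte markers summed to 33.6 to 60.5 CPM, of which Cd14 made 29.4 to 52.5 CPM, and Adgre1, Clec4f, Cd3e and Nkg7 had 3 counts or fewer over all libraries. RasG12V replicate 3 and untransformed replicate 3 stood apart from the other replicates of their groups: on the first principal component (60.2% of the variance) RasG12V replicate 3 lay at 4.75 and the other RasG12V libraries at 28.0 and 28.4, and on the second (12%) it lay at -53.2. Untransformed replicate 3 lay at -58.7 on the first and the others at -77.5 and -74.0. Results that rest on these libraries are given with both and without both of them.

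The panel spanned a wide range of basal levels. Per kilobase of exon and averaged over the 12 libraries, Trim25 was highest at 32.3 CPM, followed by Bst2 at 19.4, Ifitm2 at 18.3, Eif2ak2 at 16.6, Irf3 at 15 and Adar at 11 CPM per kilobase. Trim25 encodes the ubiquitin ligase of the RIG-I pathway, Eif2ak2 the double-stranded RNA kinase PKR, and Adar the enzyme that deaminates adenosine in double-stranded RNA. Ifi35, Ifit2, Irf1 and Stat2 followed at 9.42, 8.11, 8.07 and 4.07 CPM per kilobase. Isg15, the ubiquitin-like modifier that is among the most inducible targets of interferon, stood at 0.0953 CPM per kilobase, and Ifitm1 was lowest at 0.00278. The highest levels per length thus belonged to Trim25, the membrane factors Bst2 and Ifitm2, the RNA enzymes and Irf3. Isg15, Ifit1, Oas1a and Rsad2, which belong to families known for strong induction, were at or near the floor. Such families were not uniformly low. Ifit2 stood at 8.11 CPM per kilobase and Mx1 at 0.991, with 3.66 for Mx1 in untransformed cells.

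RasG12V cells and untransformed cells differed in 5 of the 22 tested genes. Trim25 rose, and Mx1, Mx2, Ifih1 and Stat2 fell (edgeR quasi-likelihood test, Benjamini-Hochberg adjustment over 14283 genes, threshold 0.05). Among all genes tested, 23.4% passed the same threshold in this comparison, 11.9% higher and 11.5% lower, so 5 of 22 is close to the share over all genes. The median log2 fold change of the 22 genes was 0.040, against -0.00040 over all genes tested, and 7 of the 22 had an unadjusted p below 0.05. For 7 genes the values of both groups were fully separated: Trim25 and Irf9 lay higher in RasG12V cells, and Stat2, Irf3, Ifih1, Mx1 and Mx2 lay lower, while 32.3% of all genes did not overlap. The count was 3 without untransformed replicate 2, RasG12V replicate 1 or RasG12V replicate 2, and 8 without both replicates that stood apart (4 higher and 4 lower, where 40% of all genes passed). In whole cultures, a smaller share of cells with an RNA and less of it per cell cannot be told apart.

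The Mx GTPases, dynamin-like proteins that block viral replication, gave the widest change. Both lie on chromosome 16 of GRCm38: Mx1 at 97447035 to 97462907 on the minus strand and Mx2 at 97535308 to 97560900 on the plus strand, where the annotation calls Mx2 a polymorphic pseudogene. Both genes carry inactivating changes in many inbred mouse strains, which leaves their RNA measurable. Mx1 read 21.2, 17.4 and 3.07 CPM in the untransformed libraries and 0.0364, 0.450 and 1.21 CPM in the RasG12V libraries. The groups did not overlap, and each group's replicate 3 was the library nearest the other group. Mx1 fell by 4.54 in log2 units (SE 0.80, adjusted p = 0.00131), a mean CPM 24.6-fold lower, and without both replicate 3 libraries it fell by 6.36 (SE 0.44, adjusted p = 7.5e-08), 79.2-fold lower. The Mx1 call held in all 12 fits that left out 1 library. In the Cdk8 knockout Mx1 read 0.142, 0.326 and 0.517 CPM, and in the Cdk19 knockout 0.0705, 0.346 and 0.335 CPM, all within the range of the RasG12V libraries.

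Mx2 was lower, at 0.109 CPM per kilobase over the 12 libraries against 0.991 for Mx1, and its groups lay in the same order. It read 1.46, 1.30 and 0.656 CPM in untransformed libraries and 0, 0.123 and 0.543 CPM in the RasG12V ones, with no overlap. In counts this was 41, 42 and 22 against 0, 3 and 18, with 0 to 6 counts in the knockout libraries. Mx2 thus passed the filter on low counts only because of the untransformed libraries, the group where it is high. Mx2 fell by 2.22 in log2 units (SE 0.67, adjusted p = 0.0305), 5.13-fold lower, and without both replicate 3 libraries by 4.49 (adjusted p = 1.83e-05), 22.5-fold lower. The Mx2 call was lost without untransformed replicate 1 (adjusted p = 0.0986) or 2 (0.0865) and without RasG12V replicate 1 (0.0653) or 2 (0.102), and in a fit of the 2 groups alone (0.139). The knockouts read 0.142, 0.163 and 0.152 CPM without Cdk8 and 0.106, 0.0691 and 0 CPM without Cdk19, below every untransformed library.

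**Figure D1:**
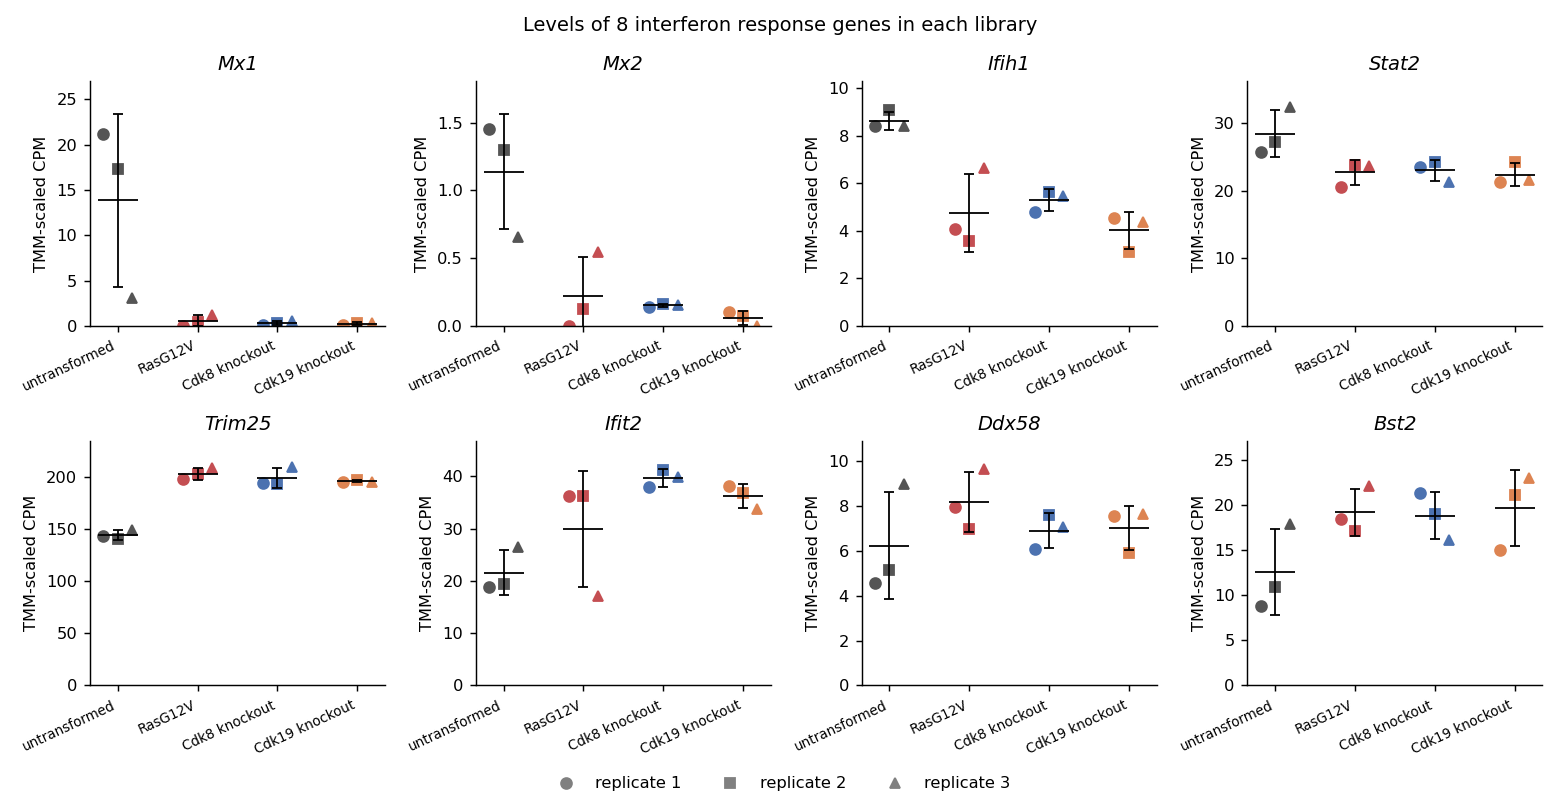
TMM-scaled CPM (vertical axis, linear and from 0) of 8 interferon response genes in each of the 12 libraries, by group. Circles, squares and triangles are replicates 1, 2 and 3, long bars are means and error bars are the SD over 3 libraries, ending at 0 where they would pass it; both knockout groups are RasG12V cells. Mx1 and Mx2 lie below every untransformed library in the 9 transformed libraries, with Mx2 of RasG12V replicate 3 (0.543 CPM) close to untransformed replicate 3 (0.656 CPM), Trim25 lies at 193 to 210 CPM there, and the replicate 3 triangles of Ifit2, Ddx58 and Bst2 lie away from the other replicates of the untransformed or RasG12V group.

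Of the 3 cytosolic RNA sensors and their ligase, the sensor gene Ifih1 fell, the ligase gene Trim25 rose, and the sensor genes Ddx58 and Dhx58 did not pass. Ifih1 (chromosome 2, 62595798 to 62646255) encodes MDA5, the sensor of long double-stranded RNA. It read 8.41, 9.06 and 8.41 CPM in untransformed libraries and 4.08, 3.56 and 6.63 CPM in the RasG12V ones. No RasG12V library reached the untransformed range, and replicate 3 was the highest of its group. Ifih1 fell by 0.85 in log2 units (SE 0.22, adjusted p = 0.0127), 1.81-fold lower, and by 1.21 without both replicate 3 libraries (adjusted p = 1.71e-05), 2.29-fold lower. The Ifih1 call was lost without RasG12V replicate 1 or 2 (adjusted p = 0.0545 each) and in a fit of the 2 groups alone (0.0804).

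Trim25 (chromosome 11, 88999376 to 89020293) read 143, 141 and 150 CPM in untransformed libraries and 198, 203 and 209 CPM in the RasG12V ones. The groups were well separated, and the 6 knockout libraries stayed at 193 to 210 CPM. Trim25 rose by 0.49 in log2 units (SE 0.06, adjusted p = 0.000124), 1.41-fold higher, and the call held in all 12 fits that left out 1 library. Ddx58, which encodes the sensor RIG-I that Trim25 activates, read 4.58, 5.17 and 8.98 CPM in untransformed libraries and 7.95, 6.99 and 9.65 CPM in the RasG12V ones. Untransformed replicate 3 lay within the RasG12V range. Ddx58 differed by 0.39 in log2 units (SE 0.23, adjusted p = 0.258). It rose by 0.60 without both replicate 3 libraries (adjusted p = 0.00646) and by 0.75 without untransformed replicate 3 alone (adjusted p = 0.00951). Dhx58, which encodes the regulatory helicase LGP2, was at 1.24 ± 0.371 CPM in untransformed libraries and 0.961 ± 0.242 CPM in the RasG12V ones (SD, n = 3), a log2 difference of -0.38 with an SE of 0.29.

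Among the transcription factors, Stat2 alone passed the threshold. Stat2 (chromosome 10, 128270559 to 128292849), the ISGF3 subunit that carries the main activation domain, read 25.8, 27.3 and 32.4 CPM in untransformed libraries and 20.5, 23.9 and 23.7 CPM in the RasG12V ones. The groups were close but did not overlap. Stat2 fell by 0.33 in log2 units (SE 0.11, adjusted p = 0.0475), and by 0.27 without both replicate 3 libraries (adjusted p = 0.0382). This call depended on the libraries used: it held in 3 of the 12 fits that left out 1 library, namely untransformed replicate 1, RasG12V replicate 3 and Cdk8 knockout replicate 3, and over the 12 fits the adjusted p ran from 0.0363 to 0.183.

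Irf9, the DNA-binding subunit of ISGF3, read 9.59, 9.74 and 8.77 CPM in untransformed libraries and 10.0, 10.1 and 10.4 CPM in the RasG12V ones. Its log2 difference was 0.12 (SE 0.11, adjusted p = 0.491). Irf9 overlaps Rnf31 on the same strand, which held 7309 counts against 3262 for Irf9, so the Irf9 values are uncertain. Irf3, the factor that is activated by the RNA sensors and is present before infection, stood at 57.1 ± 0.354 CPM in untransformed libraries and 50.6 ± 2.70 CPM in the RasG12V ones, a log2 difference of -0.17 (SE 0.09, adjusted p = 0.184). Irf1, which drives many interferon gamma targets, read 27.2, 28.6 and 32.2 CPM and then 30.2, 28.6 and 43.2 CPM, and the highest value was that of RasG12V replicate 3. Irf1 differed by 0.21 in log2 units (SE 0.15, adjusted p = 0.338). Irf7, the factor that amplifies the type I response, was too low to test.

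The other tested genes did not pass the threshold with all libraries. Ifit2, an RNA-binding restriction factor, read 18.8, 19.5 and 26.5 CPM in untransformed libraries and 36.3, 36.2 and 17.1 CPM in the RasG12V ones. RasG12V replicates 1 and 2 lay above the untransformed range and replicate 3 lay below it. Ifit2 differed by 0.46 in log2 units (SE 0.23, adjusted p = 0.179) and rose by 0.91 without both replicate 3 libraries (SE 0.087, adjusted p = 7.57e-08). Leaving out RasG12V replicate 3 alone gave a rise of 0.76 (adjusted p = 0.000382). The 6 knockout libraries, which are also RasG12V cells, read 33.7 to 41.3 CPM.

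Bst2, which encodes tetherin, a membrane protein that holds budding virions at the cell surface, read 8.84, 10.9 and 17.9 CPM in untransformed libraries and 18.4, 17.1 and 22 CPM in the RasG12V ones. Untransformed replicate 3 lay above the lowest RasG12V library. The log2 difference of Bst2 was 0.61 (SE 0.24, adjusted p = 0.0843), and Bst2 rose by 0.83 without both replicate 3 libraries (adjusted p = 0.0041) and by 0.96 without untransformed replicate 3 alone (adjusted p = 0.00417). Bst2 also passed with DESeq2 (adjusted p = 0.0456). Ifitm2, which hinders entry of enveloped viruses, read 9.34, 7.61 and 13.8 CPM and then 7.43, 9.94 and 16.8 CPM, with replicate 3 highest in both groups and a log2 difference of 0.16 (SE 0.27).

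Usp18, which encodes the protease that removes ISG15 from proteins and damps the type I receptor, read 0.426, 0.557 and 0.477 CPM in untransformed libraries and 0.692, 0.532 and 1.96 CPM in the RasG12V ones. Its log2 difference of 1.15 (SE 0.43, adjusted p = 0.0722) was 0.34 without RasG12V replicate 3, the highest library, and passed the threshold without RasG12V replicate 1 (adjusted p = 0.0471) or 2 (0.0235). Neither RNA enzyme passed: Eif2ak2 stood at 86.2 ± 2.57 and 83.9 ± 2.48 CPM, and Adar at 89.2 ± 5.56 and 92.3 ± 3.83 CPM, in untransformed and RasG12V cells. Their log2 differences were -0.040 (SE 0.07) and 0.049 (SE 0.07). Ifi35 stood at 16.8 ± 0.907 and 16.6 ± 2.63 CPM. Ifit3, Parp14, Xaf1, Ifi27 and Rtp4 were tested at group means of 0.401 to 1.84 CPM, with log2 differences from -0.33 (Xaf1) to 0.44 (Ifi27). Rtp4 overlaps Gm45338 on the same strand, which held 847 counts against 168 for Rtp4, so the Rtp4 values are uncertain. It also overlaps Masp1 on the opposite strand, which held 96047 counts, but the forward-strand column over Rtp4 held 0% of its reverse-strand counts.

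**Figure D2:**
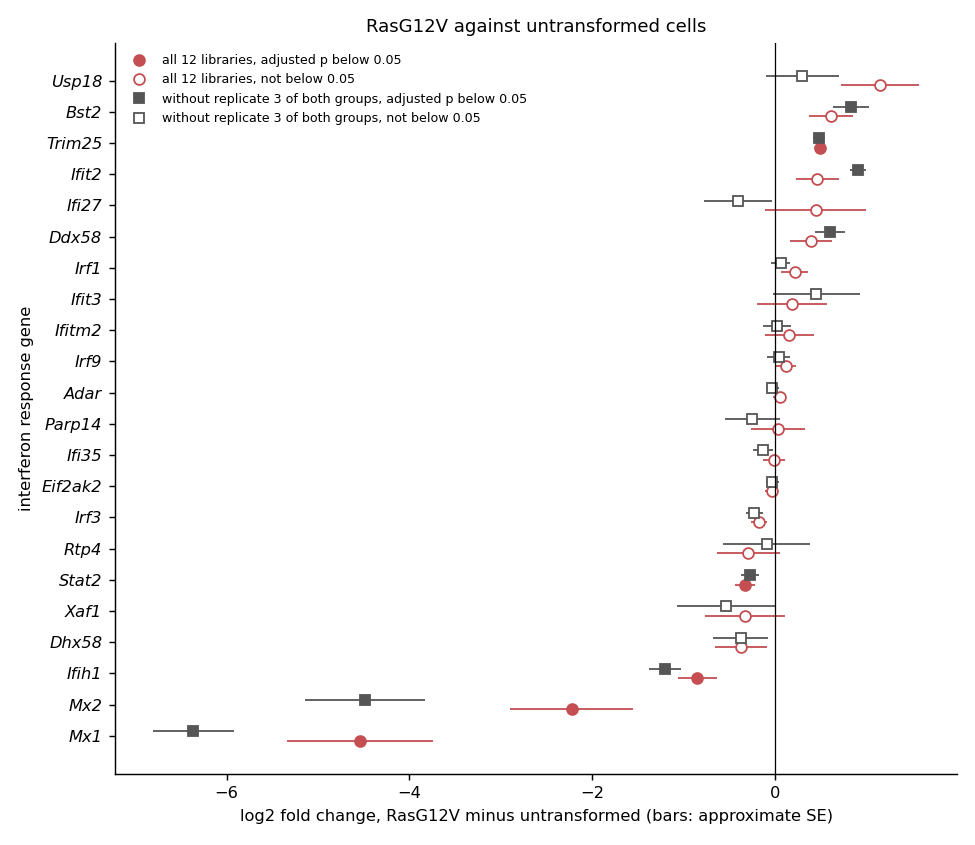
Log2 fold change of RasG12V against untransformed cells (horizontal axis) for the 22 tested interferon response genes, with approximate SE bars; circles use all 12 libraries, squares leave out replicate 3 of both groups, and filled symbols have an adjusted p below 0.05. Trim25, Stat2, Ifih1, Mx2 and Mx1 are filled in both fits, and Ifit2, Ddx58 and Bst2 are filled only without the replicate 3 libraries.

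Replicate 3 was high for much of the panel in these 2 groups. In RasG12V cells it was the highest of the 3 libraries for 15 of the 22 tested genes (68.2%), against 43.9% of all genes tested. Its median log2 ratio to the mean of the other replicates, with 0.5 CPM added, was 0.33 over the 22 genes and -0.0015 over all genes. The ratio was 1.73 for Ifi27, 1.26 for Mx1, 1.15 for Usp18, 0.93 for Ifitm2 and 0.90 for Mx2, whereas Ifit2 went the other way at -1.07. In untransformed cells replicate 3 was highest for 13 of 22 genes (59.1%, against 43.0% of all genes), with a median log2 ratio of 0.13, and the lowest for Mx1. In the knockouts replicate 3 was highest for 7 of 22 genes in each. RasG12V replicate 3 also had the highest share of mitochondrial counts, 1.92% against 1.29% and 1.41% in the other RasG12V libraries, and the lowest Hras level of its group, 313 CPM. The part of these differences in the panel's values was not tested.

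**Figure D3:**
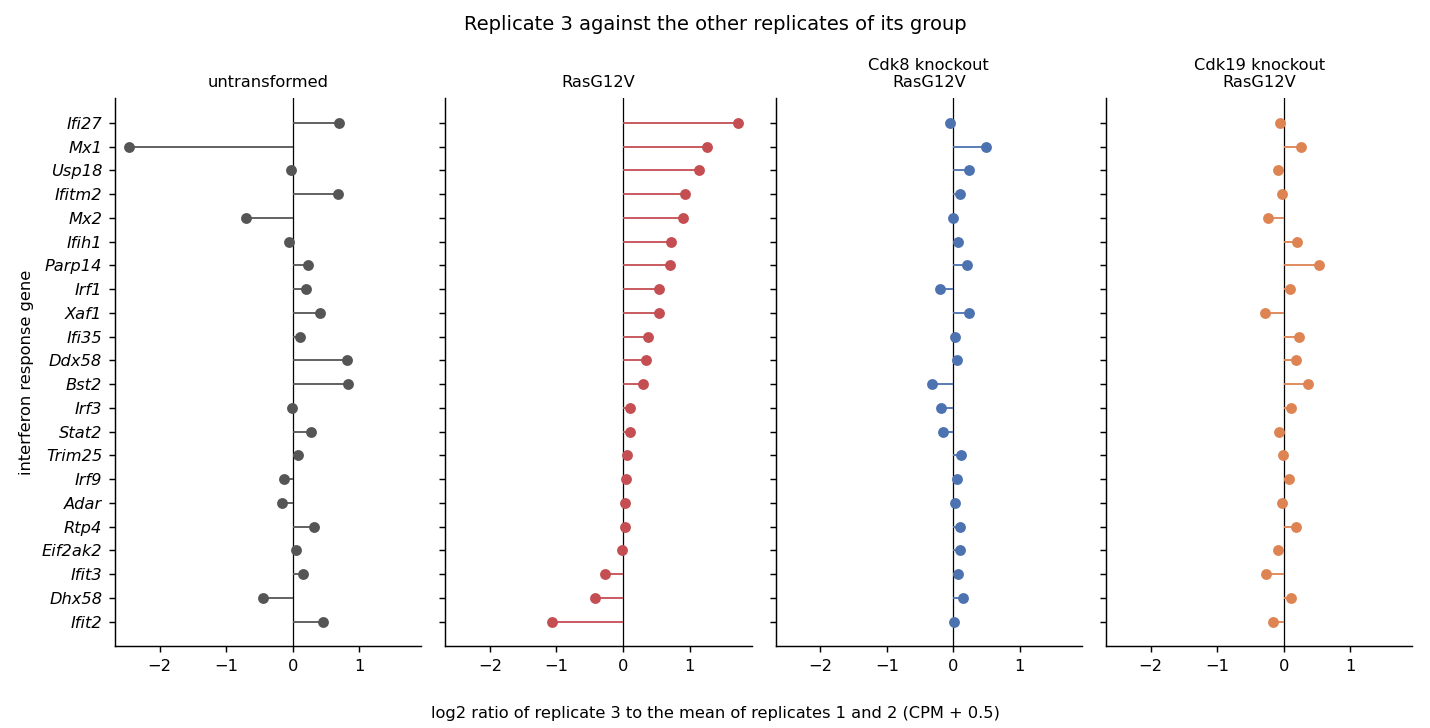
Log2 ratio of replicate 3 to the mean of replicates 1 and 2, after adding 0.5 CPM (horizontal axis), for the 22 tested interferon response genes in each group, ordered by the ratio in RasG12V cells. Most RasG12V points lie to the right of 0, from 1.73 for Ifi27 to -1.07 for Ifit2, and the points of both knockouts lie closer to 0.

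The 13 genes that were too low to test held 1 to 81 counts each over all 12 libraries and at most 19 counts in any library. They were Irf7, Isg15, Ifit1, Oas1a, Oasl1, Oasl2, Gbp2, Gbp3, Gbp7, Ifitm1, Ifitm3, Rsad2 and Ifi44. Isg15 had 7, 8, 9 and 3 counts summed over the 3 untransformed, RasG12V, Cdk8 knockout and Cdk19 knockout libraries. Ifit1, which binds RNA that lacks host cap methylation, had 11, 7, 5 and 3 counts in the same order. Ifitm1 had 1 count in all and Ifitm3 had 5. Gbp7 and Ifi44 never passed 3 counts in a group, and neither did Oas1a, a sensor that activates RNase L. Gbp2 had 21, 25, 19 and 12 counts. Irf7 had 27, 17, 19 and 18 counts. It overlaps Phrf1 on the opposite strand, which held 28840 counts over the whole gene. Forward-strand counts of Irf7 were 149% of its reverse-strand counts. In the libraries as a whole, forward-strand counts were 24.7 to 28.9 times fewer. The share of wrong-strand reads among the Irf7 counts was not tested.

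Within these low genes, 3 showed a difference between untransformed and RasG12V cells by their counts. Gbp3, a guanylate-binding protein that acts on intracellular pathogens, had 1 count over the 3 untransformed libraries and 23 over the 3 RasG12V libraries, a depth-scaled ratio of 25.4 with a 95% counting interval of 4.13 to 1047. It had 21 and 16 counts in the knockouts, and every transformed library held more Gbp3 reads than any untransformed one. Oasl1, a repressor of Irf7 translation, had 26 counts in untransformed and 4 in RasG12V libraries, 5.88-fold lower with an interval of 2.04 to 23.2. Oasl2 had 11 counts in untransformed and 0 in RasG12V libraries, at least 3.32-fold lower against a floor of 3 counts over the group. Without the filter on low counts, edgeR gave adjusted p-values of 0.00037 for Gbp3, 0.0289 for Oasl1 and 0.0377 for Oasl2. Over all genes in that fit, 3395 of 30015 passed the same threshold. Rsad2, which encodes viperin, had 1, 4, 10 and 17 counts in the 4 groups. Its ratio of 4.15 between the Cdk19 knockout and RasG12V cells had a counting interval of 1.35 to 16.9, and edgeR without the filter gave an adjusted p of 0.834.

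**Figure D4:**
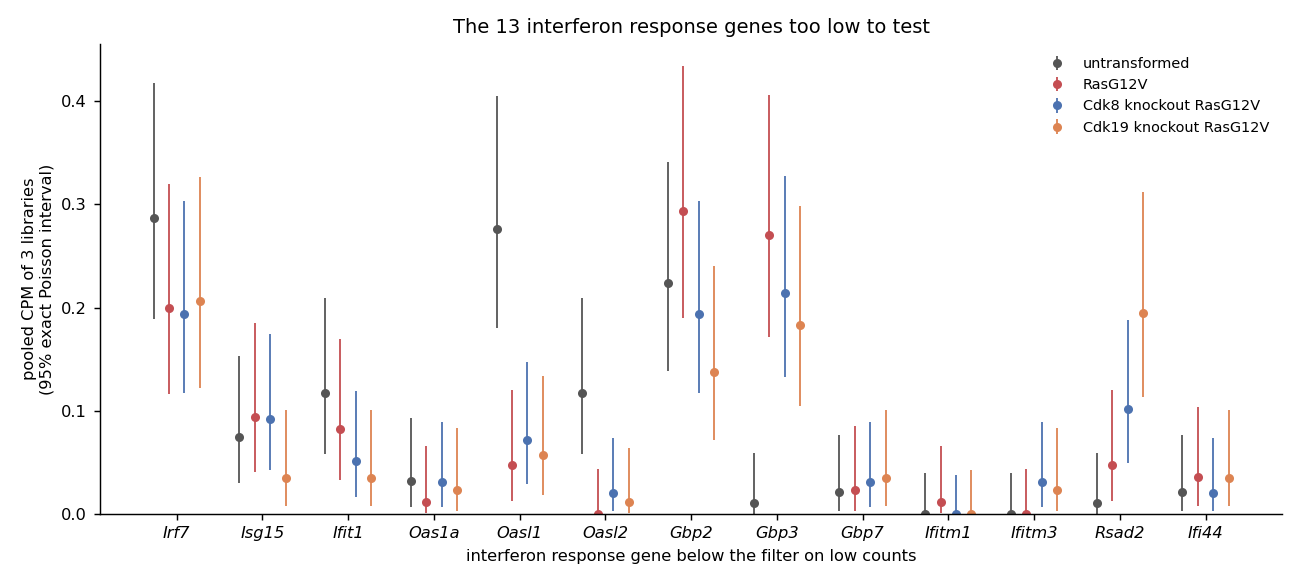
Pooled CPM over the 3 libraries of each group (vertical axis) for the 13 interferon response genes below the filter on low counts, with 95% exact Poisson intervals that cover counting error only. All points lie below 0.3 CPM; Gbp3 is near 0 only in untransformed cells, while Oasl1 and Oasl2 are highest there.

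Loss of Cdk8 or Cdk19 in RasG12V cells left no tested gene of the panel past the threshold. In the Cdk8 knockout against RasG12V cells, 0 of 22 genes passed with edgeR and 0 with DESeq2, 1 had an unadjusted p below 0.05 and the smallest adjusted p was 0.796, while 0% of all genes passed. In the Cdk19 knockout, 0 of 22 passed with either tool, 2 had an unadjusted p below 0.05 and the smallest adjusted p was 0.476, while 0.014% of all genes passed. Both comparisons share the RasG12V libraries. Over the 13 tested genes with a mean of at least 5 CPM, log2 differences ran from -0.28 (Irf9, SE 0.11) to 0.41 (Ifit2, SE 0.23) in the Cdk8 knockout and from -0.35 (Irf9, SE 0.11) to 0.28 (Ifit2, SE 0.23) in the Cdk19 knockout, and no SE exceeded 0.27. The lower genes were less precise, with an SE of up to 1.07 for Mx1 in the Cdk19 knockout.

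Irf9, whose values are uncertain because of its overlap with Rnf31, lay below the RasG12V libraries in every knockout library. It read 10.0, 10.1 and 10.4 CPM in RasG12V cells, 8.88, 7.70 and 8.64 CPM without Cdk8, and 7.12, 8.54 and 8.30 CPM without Cdk19. In the Cdk8 knockout 2 of the 22 genes did not overlap with RasG12V cells, Irf9 lower and Ifit2 higher, where 12.5% of all genes did not overlap, 6.36% higher and 6.18% lower. In the Cdk19 knockout 4 did not, Irf9, Trim25, Usp18 and Adar, all lower, where 14.5% of all genes did not overlap, 7.78% lower. For Trim25 the gap was small: 195, 197 and 196 CPM without Cdk19 against 198 CPM in the lowest RasG12V library.

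Without both replicate 3 libraries that stood apart, 2 genes passed in the Cdk8 knockout (where 1.59% of all genes passed, 1.18% higher) and 1 in the Cdk19 knockout (2.01% of all genes, 1.11% higher). Ifitm2 read 7.43, 9.94 and 16.8 CPM in RasG12V cells, 12, 14.3 and 14.1 CPM without Cdk8, and 13.5, 12.2 and 12.6 CPM without Cdk19. Without RasG12V replicate 3, the highest of these libraries, every knockout library lay above the remaining RasG12V libraries. Without both replicate 3 libraries Ifitm2 rose by 0.65 in log2 units in the Cdk8 knockout (SE 0.13, adjusted p = 0.0186) and by 0.57 in the Cdk19 knockout (SE 0.13, adjusted p = 0.0308). Leaving out RasG12V replicate 3 alone gave Ifitm2 nearly equal differences of 0.64 and 0.56 but no call (adjusted p = 0.333 and 0.482), so these calls also required leaving out untransformed replicate 3, which is in neither comparison but shares the estimate of spread. Ifi27, which encodes a small membrane protein, read 0.802, 0.491 and 3.26 CPM in RasG12V cells, 1.49, 1.90 and 1.61 CPM without Cdk8, and 0.917, 0.484 and 0.636 CPM without Cdk19. Without both replicate 3 libraries Ifi27 rose by 1.36 in the Cdk8 knockout (SE 0.32, adjusted p = 0.0385), whereas without RasG12V replicate 3 alone it differed by 1.36 and did not pass (adjusted p = 0.291).

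The knockouts were also compared with each other, a contrast that uses no RasG12V library in its means. Here 0 of 22 genes passed with edgeR and 0 with DESeq2, 1 had an unadjusted p below 0.05 and the smallest adjusted p was 0.681, while 0.105% of all genes passed. No overlap between knockouts was seen for Ifih1, Usp18, Adar, Mx2 and Ifi27, all 5 higher in the Cdk8 knockout, where 20.7% of all genes did not overlap, 11.1% higher and 9.59% lower. Ifi27 differed by 1.30 in log2 units (SE 0.58, adjusted p = 0.681), and it was 1.30 higher in a fit of the knockouts alone (adjusted p = 0.00941) and without both replicate 3 libraries (SE 0.27, adjusted p = 0.00703, where 5.32% of all genes passed, 3.59% higher). Ifi27 passed in 0 of the 12 fits that left out 1 library, with a smallest adjusted p of 0.0907. Adar read 91.5, 92.4 and 93.7 CPM without Cdk8 and 83.7, 84.9 and 82.6 CPM without Cdk19, a log2 difference of 0.14 (SE 0.07, adjusted p = 0.695). Ifih1 read 4.78, 5.62 and 5.48 CPM without Cdk8 and 4.55, 3.11 and 4.38 CPM without Cdk19, a log2 difference of 0.40 (SE 0.22, adjusted p = 0.792).

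**Figure D5:**
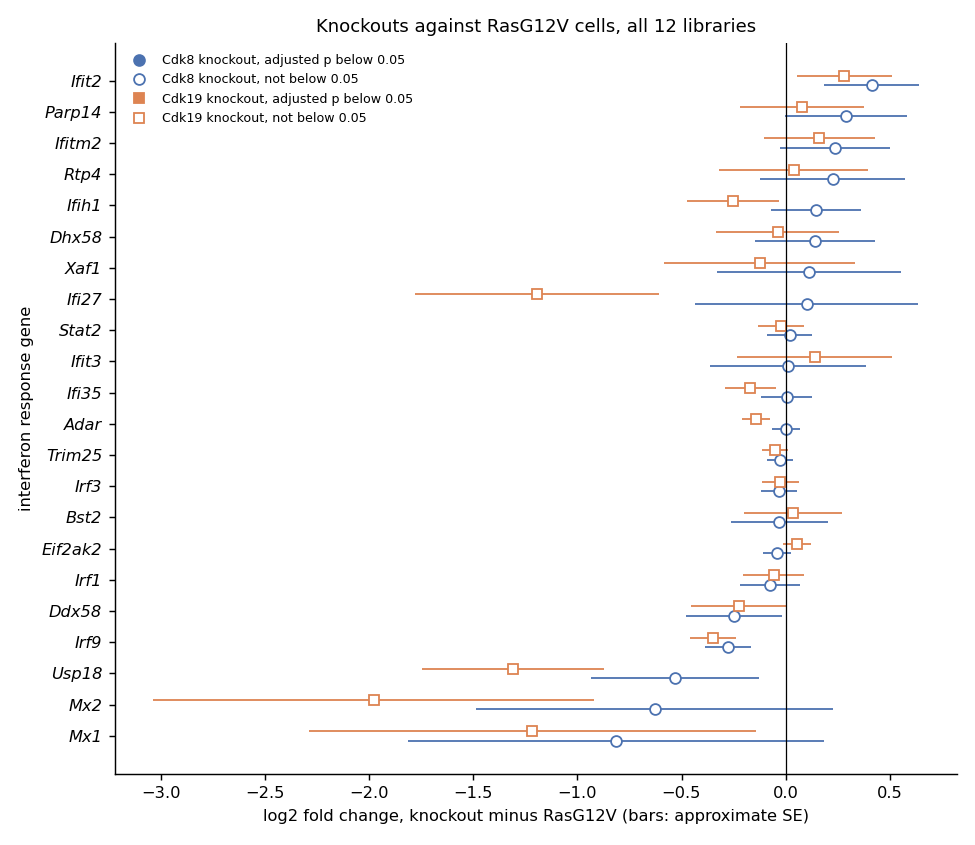
Log2 fold change of each knockout against RasG12V cells (horizontal axis) for the 22 tested interferon response genes in the fit of all 12 libraries, with approximate SE bars; circles are the Cdk8 knockout and squares the Cdk19 knockout, which share the RasG12V libraries. All symbols are open, meaning an adjusted p of at least 0.05, and the longest bars belong to Mx1 and Mx2.

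The rest of the pathway was read from 124 further genes, of which 80 were tested. In RasG12V against untransformed cells 8 rose and 14 fell, where 23.4% of all genes passed (11.9% higher and 11.5% lower), and 0 of the 80 passed with edgeR in each of the other 3 comparisons, where 0%, 0.014% and 0.105% of all genes passed. In these comparisons, the Cdk8 knockout, the Cdk19 knockout and the knockouts against each other, 3, 6 and 8 of the 80 had an unadjusted p below 0.05. The share of all genes with such a p was not counted, so these counts cannot be set against it. None of the 11 interferon ligand genes could be tested: 8, among them Ifnb1 and Ifna4, had 0 counts in all 12 libraries, and Ifne, Ifnz and Ifng had 10, 3 and 2 counts. Ifngr1 and Ifngr2, the chains of the interferon gamma receptor, fell by 0.39 (adjusted p = 0.0115) and 0.87 (adjusted p = 0.00571). The type I receptor chains did not pass: Ifnar1 stood at 55.0 and 58.1 CPM and Ifnar2 at 7.55 and 8.30 CPM in untransformed and RasG12V cells.

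Among 13 tested induction adaptors and kinases, 4 rose, namely Tmem173, Myd88, Irf5 and Ifi204, and none fell. Tmem173 was low, with 9, 5 and 10 counts in untransformed libraries and 18, 11 and 59 in the RasG12V ones. The 59 counts were those of RasG12V replicate 3, which stood apart. The Irf5 values are uncertain, since its forward-strand column held 1158% of the 694 reverse-strand counts, so wrong-strand reads cannot be told apart. Among 12 negative regulators Nlrc3 and Rnf125 rose and Tnfaip3 fell. Of 45 further interferon-stimulated genes tested, 2 rose and 10 fell. Samd9l, an antiviral gene, read 25.1, 25.8 and 26.1 CPM in untransformed libraries and 4.85, 4.74 and 5.49 CPM in the RasG12V ones, and it fell by 2.35 in log2 units (adjusted p = 1.28e-07). Nlrc5, the activator of MHC class I genes, read 0.248, 0.0619 and 0.358 CPM and then 6.05, 9.0 and 8.08 CPM, and it rose by 5.08 (adjusted p = 5.07e-07). Lgals9 fell by 1.34, Ms4a4b by 3.30 and Gbp8 by 1.12, and Nlrc3 rose by 2.30. Without both replicate 3 libraries 14 rose and 22 fell of 81 tested, where 40% of all genes passed. In the other 3 comparisons, in the same order, 3, 3 and 6 rose and 0, 0 and 3 fell, where 1.59%, 2.01% and 5.32% of all genes passed. Markers of stellate cells and fibroblasts summed to 0.71 to 1.31 CPM in untransformed and 1.90 to 2.33 CPM in RasG12V libraries, with Col3a1 and Lrat at 3 counts or fewer in all libraries, and their part in these differences was not tested.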

How the data were processed

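Total RNA from BMEL cells, as 12 libraries in 4 groups of 3, was sequenced on an Illumina HiSeq2500; the labels name both depletion of ribosomal RNA and a TruSeq RNA kit. The deposited files give counts for each Ensembl gene, unstranded and by strand. FastQC and STAR 2.6.0a with GRCm38.p6 are named per the submitters' processing notes, and the gene annotation used for counting is not given in the sources used here. The reverse-strand counts (column 4) held 24.7 to 28.9 times the forward-strand counts and were used. Reads without a gene were left out: 2.10% to 3.34% unmapped, 23.0% to 26.3% multimapping, 4.31% to 5.85% outside genes and 0.963% to 1.04% ambiguous. Multimapping reads were not counted, so the Ifit, Oas, Gbp, Ifitm and Ifna families are uncertain. Symbols and coordinates came from GENCODE M21, which matched 54079 of 54146 identifiers.

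The test was the quasi-likelihood test of edgeR 4.0.16 (R 4.3.3; filterByExpr, TMM, robust glmQLFit, glmQLFTest), with all 12 libraries in 1 fit without a block and Benjamini-Hochberg adjustment over 14283 genes at 0.05. SEs are approximate, taken as the size of the log2 fold change over the root of its F statistic. Counts of genes with an unadjusted p below 0.05 are given without the share over all genes, which was not counted. The steps were tested on simulated data. Alternatives were RLE size factors, no filter on low counts, DESeq2 1.42.0, the unstranded column, a replicate block, only the groups compared, and each library left out. Leaving out both replicate 3 libraries that stood apart was added after seeing the data. Genes named are all 35 panel genes, and of the other pathway genes the ligands, the receptors, and up to 6 per comparison by adjusted p. Tmem173, Myd88, Irf5, Ifi204, Rnf125 and Tnfaip3 are outside this rule and were named after their values were seen. Some genes of these lists are not reported here. The panel and the lists were chosen with earlier results of these data known. Figures were drawn with matplotlib 3.10.9.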

Additional observations from a re-analysis of the deposited data

How the results depend on the processing

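Of 1667 alternative values for 88 pairs of a tested panel gene and a comparison, 1609 kept their direction and side of the threshold, 19 lost a call, 16 gained one, 23 moved without a call and 0 calls reversed. In RasG12V against untransformed cells, the 5 of 22 panel genes called became 8 of 35 without the filter on low counts. The count was 2 in a fit of the compared groups alone and 8 without both libraries that stood apart. With 1 library left out it was 3 to 6. Over all genes, 3340 of 14283 became 3395 of 30015 without the filter. The other 3 settings gave 1574, 5799 and 2359 to 4808 calls over all genes, in the same order. In the Cdk8 knockout against RasG12V cells 0 panel genes became 2 without both libraries that stood apart and stayed at 0 with 1 library left out; over all genes 0 became 16 without the filter, 30 with DESeq2, 231 without both libraries and 0 to 3 with 1 left out. In the Cdk19 knockout against RasG12V cells 0 panel genes became 1 without both libraries, and 2 calls over all genes became 84 without the filter, 66 with DESeq2, 1 in a fit of the compared groups, 291 without both libraries and 0 to 21 with 1 left out. Between the knockouts 0 panel genes became 1 in a fit of the compared groups and 1 without both libraries, and 15 calls over all genes became 108 without the filter, 115 with DESeq2, 496 in a fit of the compared groups, 771 without both libraries and 0 to 133 with 1 left out. The larger count without the filter includes genes that the filter would have removed; for the other settings the cause was not tested.

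Replicate numbers shared by the groups do not mark a shared origin in the labels, and same-numbered libraries correlated between -0.168 and 0.282 in their deviations from the group means, so the numbers were not taken to pair the libraries. With the replicate block, calls over all genes were 3685, 1, 2 and 17 in the 4 comparisons in the order above, and panel genes called were 6, 0, 0 and 0; Bst2 was the gene gained (log2 difference 0.64, adjusted p = 0.0489). Depth limits the 13 untested genes, whose levels lie near the floor of 0.0813 to 0.121 CPM per library.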
